A study of Mus musculus with 6 samples.

Results

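Replication-dependent histone genes are the protein-coding genes of the Hist1 to Hist4 clusters, taken by gene symbols that begin with Hist1h, Hist2h, Hist3h or Hist4h in the GENCODE annotation of GRCm38. There were 67 of them among 21853 protein-coding genes: 6 for the linker histone H1, 18 for H2A, 18 for H2B, 12 for H3 and 13 for H4. They lie on chromosome 13 (Hist1, 54 genes), chromosome 3 (Hist2, 10 genes), chromosome 11 (Hist3, 2 genes) and chromosome 6 (Hist4h4). The question asked of them was where H3K27ac, acetylation of lysine 27 of histone H3, lay at their promoters in unperturbed cells.

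Replication-dependent histone genes supply the core and linker histones that package newly copied DNA, and they are transcribed mainly in S phase. The core histones H2A, H2B, H3 and H4 form the nucleosome, and H1 binds the DNA between nucleosomes. Many H2A and H2B genes stand head to head and share the stretch of DNA between them as a promoter. Their mRNAs mostly lack introns and end in a conserved stem-loop instead of a poly(A) tail, which SLBP binds, and NPAT gathers with the genes in the histone locus body. H3K27ac is a mark of active promoters and enhancers.

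H3K27ac was measured by ChIP-seq with the antibody ab4729 in E14 mouse embryonic stem cells (E14Tg2A), a line that carries Rosa26-Cre and Oct4-IRES-Puro in every group and was grown in N2B27 medium with LIF, PD0325901 and CT-99021. The 6 samples are 2 controls given DMSO, 2 treated with NVP-2, an inhibitor of the kinase CDK9, at 100 nM for 120 min, and 2 treated with actinomycin D (ActD), which binds DNA and blocks RNA polymerases, at 800 nM for 120 min (the treatment protocol gives 1 µg/ml). Each also received chromatin of human HEK293T cells as a spike-in. The values below come from the 22973 peaks of the control cells, 1 list for both replicates together, so they carry no replicate error and the treated groups were not analysed here. A peak is a start and an end in mm10 with no height, and the list carries no read depth. The list shows where the mark was called in a population of cells, not in how many of them or how strongly.

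A gene was called marked when a peak overlapped the 2 kb centred on its transcription start site (TSS), that is, 1 kb to each side. By that rule 7 of 8 pluripotency markers were marked (Pou5f1, Nanog, Sox2, Zfp42, Tdgf1, Lin28a and Utf1, with Dppa3 unmarked), and 1 of 10 markers of other cell types, Gata4.

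The promoters themselves can be read from the genome (GRCm38). The stretches below are the intervals between head-to-head H2A and H2B TSSs, on the plus strand, followed by 200 bases upstream of an H1, an H3 and an H4 gene in the direction of transcription. Capitals mark matches, on either strand, to the 6 short motifs searched: CCAAT (the site of NF-Y), TATAAA (the TATA box), ATTTGCAT (the octamer bound by POU2F1), AAACACA (the H1 box), GGTCCG (part of the H4 element bound by HINFP) and TTTCGCGC (an E2F site). The first 2 intervals are near-copies of each other in opposite orientation, and none of the 4 genes around them was marked.
Hist1h2bq/Hist1h2ao, chr13:21810198-21810464: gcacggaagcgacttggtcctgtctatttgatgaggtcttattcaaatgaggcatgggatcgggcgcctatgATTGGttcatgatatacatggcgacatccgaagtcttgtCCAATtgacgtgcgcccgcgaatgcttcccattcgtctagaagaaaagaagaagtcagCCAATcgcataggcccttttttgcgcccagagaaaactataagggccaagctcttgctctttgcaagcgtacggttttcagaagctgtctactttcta
Hist1h2ap/Hist1h2br, chr13:21833508-21833742: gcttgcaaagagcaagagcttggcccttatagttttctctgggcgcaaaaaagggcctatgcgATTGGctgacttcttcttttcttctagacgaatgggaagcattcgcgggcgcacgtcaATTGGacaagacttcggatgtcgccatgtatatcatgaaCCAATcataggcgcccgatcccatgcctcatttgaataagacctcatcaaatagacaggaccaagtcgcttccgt
Hist1h2ac/Hist1h2bc, chr13:23683949-23684198, both unmarked: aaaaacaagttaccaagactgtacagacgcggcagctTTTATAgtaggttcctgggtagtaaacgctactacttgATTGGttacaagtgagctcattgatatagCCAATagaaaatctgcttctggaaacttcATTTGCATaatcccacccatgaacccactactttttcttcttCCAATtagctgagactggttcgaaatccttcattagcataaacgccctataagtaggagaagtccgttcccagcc
Hist1h2ag/Hist1h2bj, chr13:22042945-22043213, both marked: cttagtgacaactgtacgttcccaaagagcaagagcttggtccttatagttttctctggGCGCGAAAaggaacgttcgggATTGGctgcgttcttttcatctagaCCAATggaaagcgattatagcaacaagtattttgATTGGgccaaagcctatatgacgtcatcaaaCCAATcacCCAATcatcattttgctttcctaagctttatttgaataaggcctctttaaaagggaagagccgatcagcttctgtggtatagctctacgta
Hist1h2ae/Hist1h2bg, chr13:23571221-23571395, both marked: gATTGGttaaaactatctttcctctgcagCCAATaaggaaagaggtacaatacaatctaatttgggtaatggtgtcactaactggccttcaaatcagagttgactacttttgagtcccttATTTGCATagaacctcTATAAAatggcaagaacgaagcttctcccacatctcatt
Hist2h2ac/Hist2h2be, chr3:96220881-96221118, both marked: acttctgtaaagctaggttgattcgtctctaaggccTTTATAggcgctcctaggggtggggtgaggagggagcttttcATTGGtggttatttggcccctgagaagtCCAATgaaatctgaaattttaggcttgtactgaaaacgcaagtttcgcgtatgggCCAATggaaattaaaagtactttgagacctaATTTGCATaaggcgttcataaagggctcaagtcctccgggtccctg
Hist1h1b, chr13:21780626-21780825, minus strand, marked: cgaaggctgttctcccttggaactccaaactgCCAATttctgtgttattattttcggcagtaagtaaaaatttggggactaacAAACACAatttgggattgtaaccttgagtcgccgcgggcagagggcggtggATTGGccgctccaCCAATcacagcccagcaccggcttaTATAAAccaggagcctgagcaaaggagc
Hist1h3a, chr13:23762387-23762586, minus strand, marked: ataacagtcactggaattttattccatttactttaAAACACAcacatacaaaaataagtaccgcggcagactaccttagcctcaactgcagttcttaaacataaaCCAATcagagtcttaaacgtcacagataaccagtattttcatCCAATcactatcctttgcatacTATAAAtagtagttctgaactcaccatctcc
Hist1h4d, chr13:23581398-23581597, plus strand, marked: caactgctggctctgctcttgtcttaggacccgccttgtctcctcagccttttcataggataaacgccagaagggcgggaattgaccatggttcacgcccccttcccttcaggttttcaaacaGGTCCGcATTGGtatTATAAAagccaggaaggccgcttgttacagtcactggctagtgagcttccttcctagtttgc

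Of the 67 histone genes, 57 were marked (85.1%, 95% Wilson interval 74.7 to 91.7%) and 10 were not. Across all protein-coding genes 48.8% were marked (10674 of 21853). Among the other single-exon genes the share was 18.8% (242 of 1287, 16.8 to 21.0%). Among other genes with at least 2 further coding TSSs within 10 kb, it was 59.6% (762 of 1279, 56.9 to 62.2%). The histone genes were thus marked more often than the background, by 36.2 percentage points, and more often than either of these sets. Neither set was matched for expression, and 62 of the 67 histone genes had single-exon transcripts only. No test was run on these differences, because the histone genes share peaks and are not independent. The intervals cover counting error only.

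Every H1 and H3 gene was marked. All 6 H1 genes had a peak (interval 61.0 to 100%), and so did all 12 H3 genes (75.8 to 100%). Among the H4 genes 12 of 13 were marked (92.3%, 66.7 to 98.6%), with Hist1h4m as the exception. The unmarked genes were otherwise all of the H2A and H2B types, where 14 of 18 H2A genes (77.8%, 54.8 to 91.0%) and 13 of 18 H2B genes (72.2%, 49.1 to 87.5%) were marked. The intervals of the 5 types overlap.

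**Figure D1:**
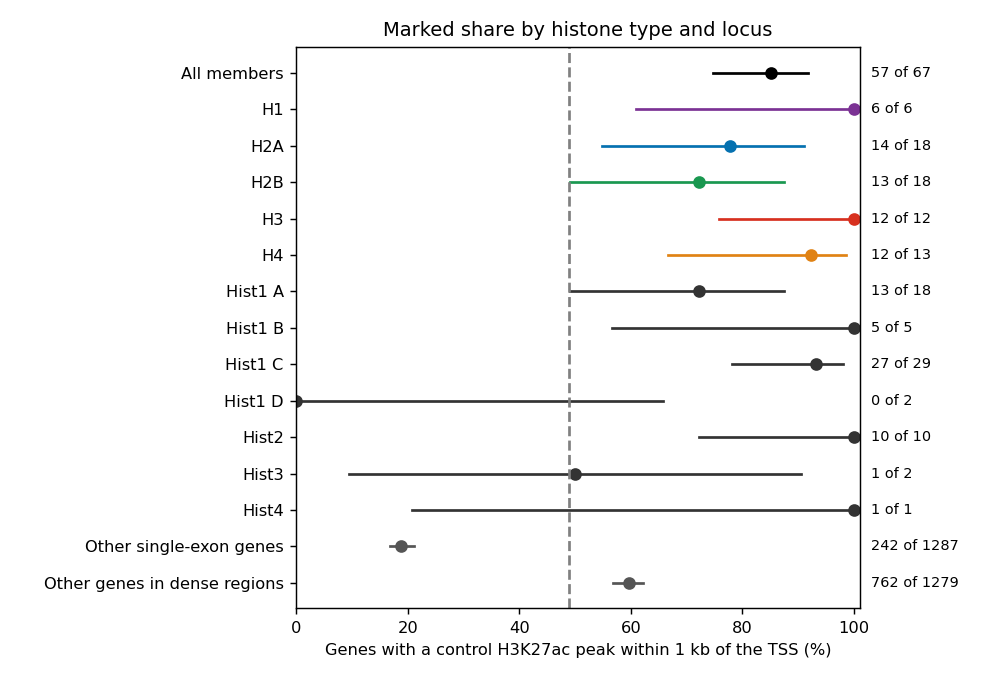
Share of genes with a control H3K27ac peak within 1 kb of the TSS, in percent, for all histone genes, for each histone type and locus, and for 2 sets of other protein-coding genes, with the 95% Wilson interval as a line and the count at the right. The dashed line is the share of all protein-coding genes, 48.8%, and the H1, H3, Hist1 B, Hist2 and Hist4 points stand at 100%.

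Along the chromosomes the genes fall into 7 loci when a gap of over 100 kb between TSSs starts a new one. The distance was chosen after the positions were seen. Hist1 splits into 4 of them. Hist1 A (chr13:21715143-21834743) holds 18 genes, of which 13 were marked (72.2%). Hist1 B (chr13:22034568-22044214) holds 5, all marked. Hist1 C (chr13:23530050-23764666) is the largest, with 27 of 29 marked (93.1%). Hist1 D (chr13:23933156-23935462) holds the pair Hist1h2ba and Hist1h2aa, both unmarked. The Hist2 locus (chr3:96218865-96270752) had all 10 genes marked. In the Hist3 locus on chromosome 11 the H2A gene Hist3h2a was marked and the H2B gene Hist3h2ba was not, and on chromosome 6 Hist4h4 was marked.

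Peaks covered 3.29% of the chromosomes and more of every histone locus but Hist1 D. They covered 34.4% of Hist1 A, 100% of the 9.647 kb of Hist1 B, 36.3% of Hist1 C, 59.7% of Hist2 and 13.7% of Hist3, counted from 1 kb before the first TSS to 1 kb after the last, and none of Hist1 D. The loci were bounded by histone promoters, so their cover and that of the chromosomes are not like for like. Between the Hist1 loci the cover was 49.8% from A to B, 5.62% from B to C and 0.595% from C to D. The only other coding gene within Hist1 C, Hfe, which controls iron uptake, was unmarked.

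**Figure D2:**
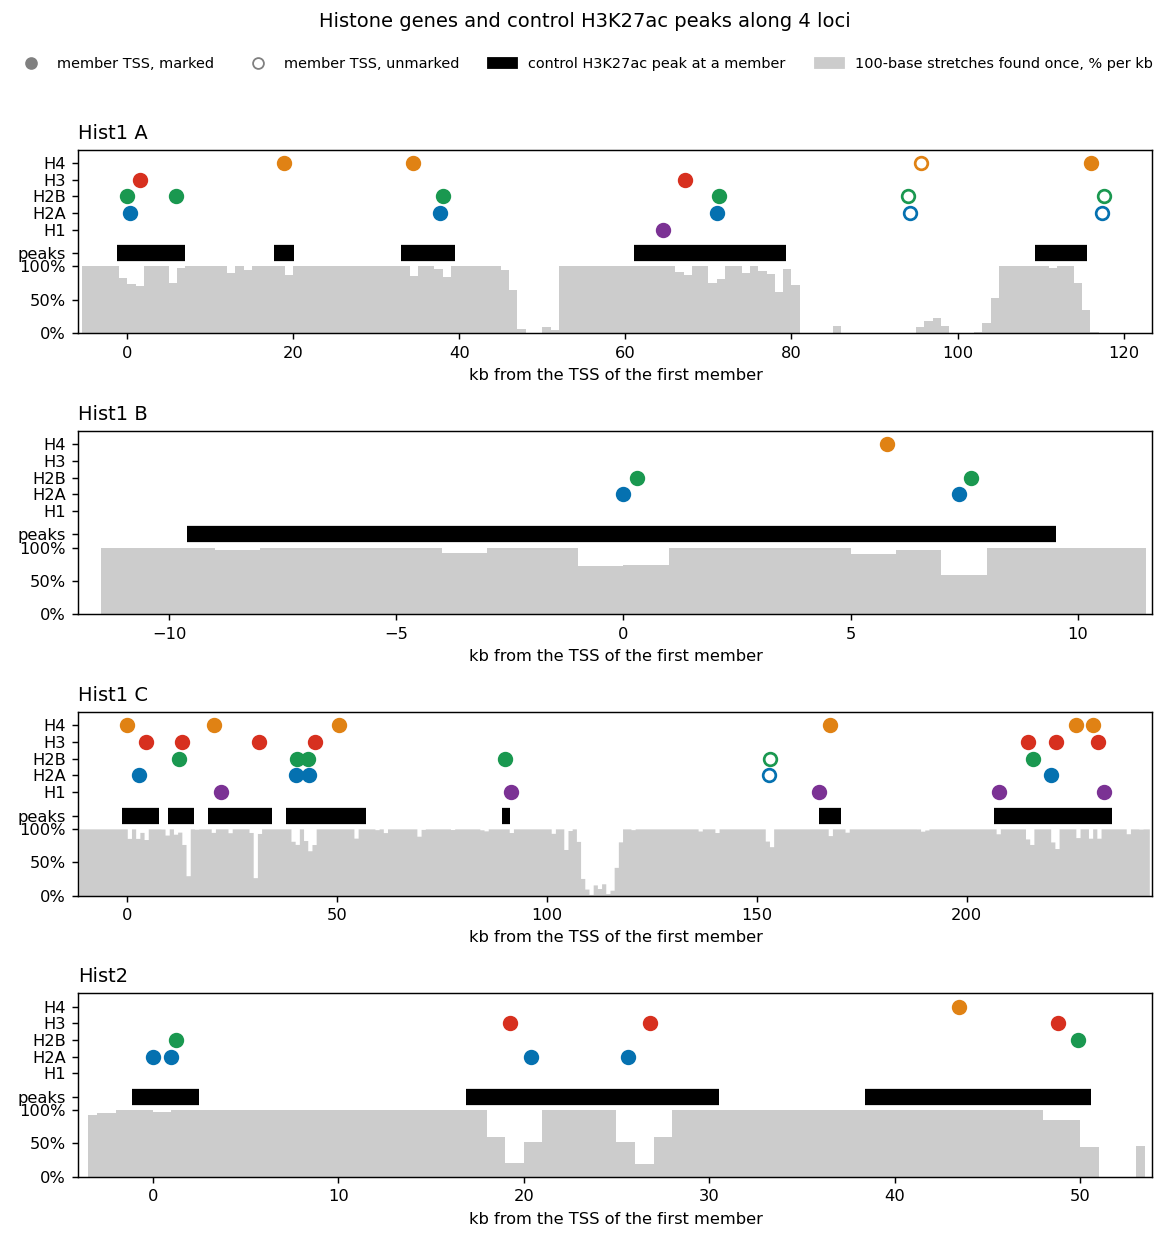
The 4 largest histone loci, with position in kb from the TSS of the first gene on the x axis. Circles are TSSs by histone type (filled if marked, open if unmarked), black bars are control H3K27ac peaks at histone genes, and the grey area is the share of 100-base stretches that occur once in the genome, per kb. The open circles of Hist1 A lie where the grey area is at or near 0, and those of Hist1 C lie outside the peaks where the grey area is high.

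The 57 marked genes had 18 distinct peaks between them. A peak held 1 to 9 histone promoters, with a mean of 3.17 and a median of 3. In all, 53 of the 57 shared their peak with at least 1 other histone gene. There were 14 peaks with 2 or more histone promoters, and each of the 14 joined more than 1 histone type. The 11 peaks with 3 or more held 47 genes.

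The widest of them, chr13:23737655-23765669, was 28015 bp wide and held 9 histone genes of all 5 types at the end of Hist1 C. These were Hist1h1c, Hist1h3c, Hist1h2bb, Hist1h2ab, Hist1h3b, Hist1h4b, Hist1h4a, Hist1h3a and Hist1h1a. It was the peak with the most coding promoters of the whole list, where the next count was 6. One of the peaks with 6 was also in Hist1 C, chr13:23568759-23587935 (19177 bp), over the pairs Hist1h2ae/Hist1h2bg and Hist1h2bf/Hist1h2ad and over Hist1h3d and Hist1h4d. In Hist1 B a single peak of 19146 bp, chr13:22025947-22045092, held the whole locus of Hist1h2ah, Hist1h2bk, Hist1h4i, Hist1h2ag and Hist1h2bj. It reached 9621 bp to the left of the TSS of Hist1h2ah, the leftmost gene of the locus.

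In Hist1 A 2 peaks held 4 genes each. The peak chr13:21777229-21795513 (18285 bp) held Hist1h1b, Hist1h3i, Hist1h2an and Hist1h2bp, and chr13:21714872-21723038 (8167 bp) held Hist1h2bl, Hist1h2ai, Hist1h3h and Hist1h2bm. In Hist2 the fullest peak, chr3:96236780-96250374 (13595 bp), held the H3 genes Hist2h3c2 and Hist2h3c1 and the H2A genes Hist2h2aa2 and Hist2h2aa1. Another, chr3:96218743-96222363 (3621 bp), held Hist2h2ab, Hist2h2ac and Hist2h2be with the promoter of Bola1, a gene of mitochondrial redox biology. The third, chr3:96258252-96270417 (12166 bp), held Hist2h4, Hist2h3b and Hist2h2bb. The lone Hist4h4 lay in a peak of 13727 bp, chr6:136803279-136817005, with H2afj, the gene of a replication-independent H2A variant.

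At the other end of the range, Hist3h2a had the narrowest peak, chr11:58954624-58955968, with 1345 bp, which it shared with Trim17, a ubiquitin ligase gene. Only 3 of the 18 peaks held the promoter of a coding gene other than these histone genes: Trim17, Bola1 and H2afj.

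The width and the crowding of these peaks can be set beside the 9176 other peaks at coding promoters. The median width was 8503 bp for the 18 histone peaks and 2045.5 bp for the others, of which 11.7% (1077) were at least 8503 bp wide. Counted once per marked gene, the medians were 13595 bp and 2158 bp. At least 3 coding promoters lay in 11 of the 18 histone peaks (61.1%) and in 87 of the 9176 others (0.948%). Of the marked histone genes 96.5% shared their peak with another coding promoter, against 26.1% of the other marked genes. Peaks within 2 kb were merged when the list was made, and the histone genes are close together, so a wide peak can be a run of neighbouring peaks. The list does not tell them apart. How many promoters a peak holds also depends on how close the genes are, and the other peaks and genes here were not matched for spacing.

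**Figure D3:**
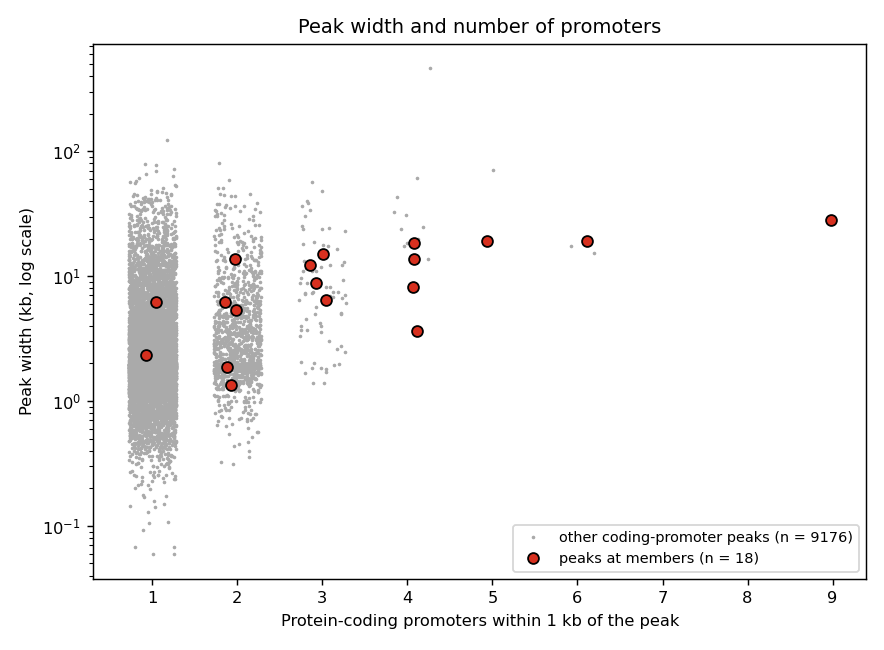
Peak width in kb (log scale) against the number of protein-coding promoters within 1 kb of the peak, for 18 peaks at histone genes (red) and 9176 other coding-promoter peaks (grey), spread sideways within each count for visibility. The histone peak with 9 promoters stands alone at the right, and 11 of the 18 red points are at 3 promoters or more.

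In 55 of the 57 marked genes the TSS itself was inside the peak, against 90.5% of the other marked coding genes. In 51 of them the whole gene was inside, which for a median gene span of 539 bp is a small part of a peak. Where the TSS was inside, the peak reached 53 to 26011 bp upstream of it (median 6895 bp) and 665 to 26861 bp downstream (median 4877 bp). The genes at the edges of one peak show the extremes: in the 28015-bp peak, Hist1h1c had 1153 bp of it upstream and 26861 bp downstream, and Hist1h1a had 26011 bp upstream and 2003 bp downstream. The TSS of the remaining 2 lay outside the peak, at 251 bp for Hist1h1e and at 505 bp for Hist1h4n.

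**Figure D4:**
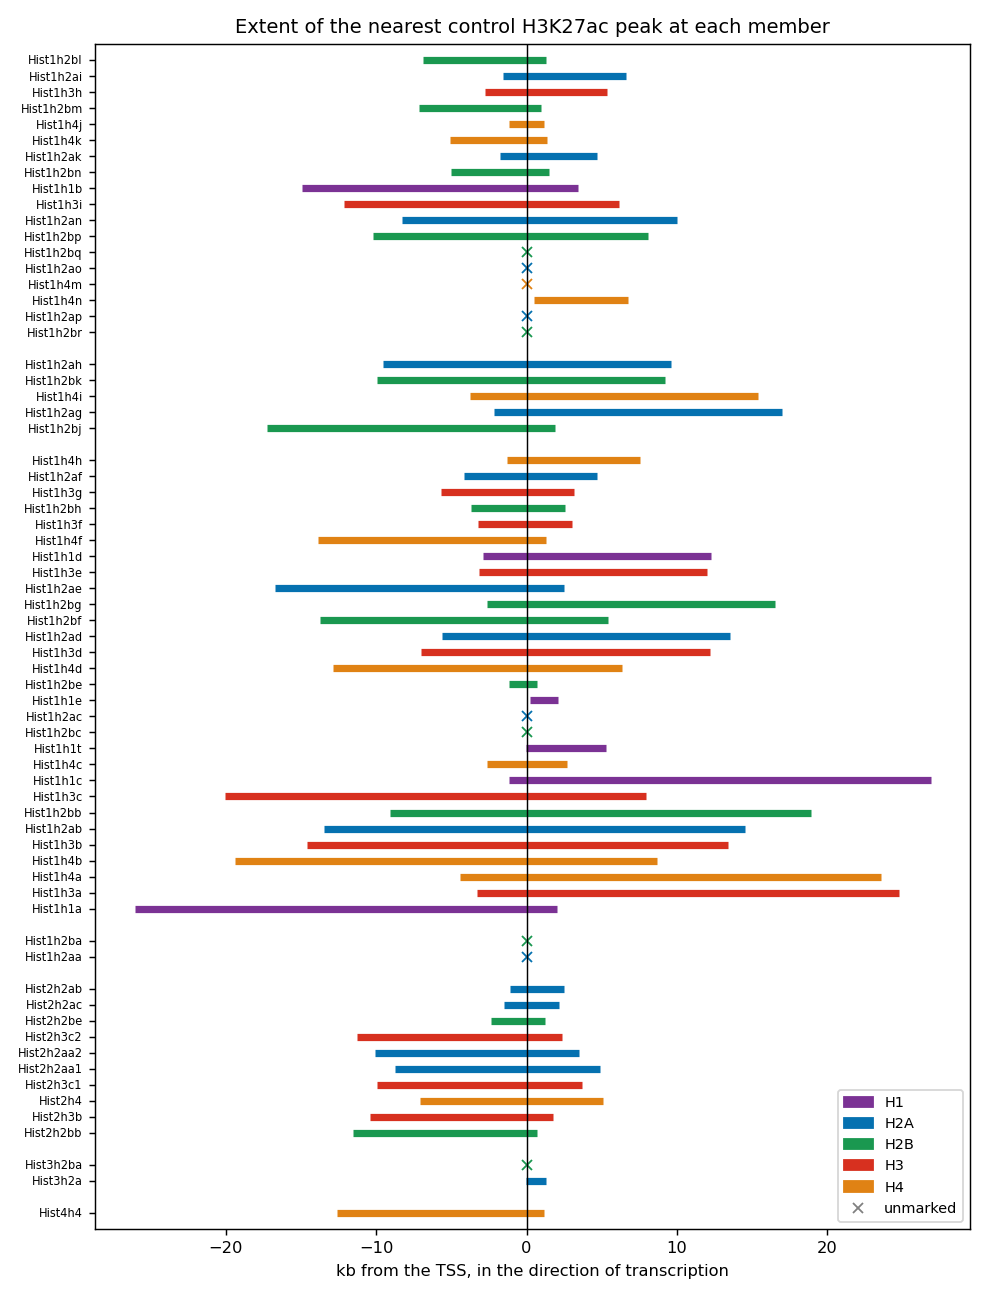
Extent of the control H3K27ac peak around the TSS of each of the 67 histone genes, in kb in the direction of transcription, coloured by histone type and grouped by locus, with a cross for the 10 unmarked genes. Peaks reach from 53 to 26011 bp upstream where the TSS is inside.

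Hist1h1e is 1 of 2 genes at a narrow peak in the middle of Hist1 C, chr13:23620435-23622307 (1873 bp). The other is Hist1h2be by its annotated TSS, which lies 35.168 kb from its own start codon in both of its GENCODE isoforms. The start codon, at chr13:23585956, lies in the 19177-bp peak named above. RefSeq gives Hist1h2be 2 TSSs, 1 at 30 bp from the GENCODE position and 1 at 14 bp from the start codon, inside the 19177-bp peak. Hist1h2be was therefore marked by either position, but its peak partners differ between them.

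Of these genes 3 are known as testis-restricted: Hist1h1t, the testis linker histone, and the pair Hist1h2ba and Hist1h2aa. The pair was unmarked and farthest of all histone genes from any peak, at 67044 and 66738 bp. Hist1h1t was marked. The peak chr13:23695761-23701110 (5350 bp) begins 53 bp upstream of its TSS and runs 5296 bp downstream, over Hist1h4c, whose own TSS has 2656 bp of it upstream. From a list of positions, the mark at Hist1h1t and that at Hist1h4c cannot be told apart.

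The head-to-head arrangement went with a shared call. There were 13 head-to-head pairs with TSSs within 1 kb of each other, 12 of an H2A and an H2B gene and 1 of an H2B and an H3 gene (Hist1h2bh/Hist1h3f, marked). The intervals of the 12 measured 175 to 305 bp, with a median of 258.5 bp. Both genes were marked in 8 of the 12 and neither in 4, namely Hist1h2bq/Hist1h2ao, Hist1h2ap/Hist1h2br, Hist1h2ac/Hist1h2bc and Hist1h2ba/Hist1h2aa. None had 1 of 2 marked, which the rule nearly fixes, since the promoter windows of a pair overlap almost entirely. These 4 pairs are 8 of the 10 unmarked genes, and Hist1h4m and Hist3h2ba are the others.

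The distances of the unmarked genes from the nearest peak spread widely. Hist1h2ap and Hist1h2br lay closest, at 1816 and 2052 bp. Hist3h2ba lay at 5704 bp, Hist1h2bc at 11562 bp and Hist1h2ac at 11813 bp. Hist1h4m, Hist1h2bq and Hist1h2ao lay at 13733, 14684 and 14952 bp.

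Some of these genes lie in repeated sequence. Poorly mapped reads, with a mapping quality under 10, were removed when the list was made, and a read from a repeated stretch maps poorly. The share of 100-base stretches that occur once in the genome was therefore counted in the window of each gene. Its median was 87.7% for the histone genes and 100% for 2179 other coding genes, every 10th in order. It was 88.7% for the marked histone genes (19.3 to 100%) and 45.7% for the unmarked (0 to 98.7%). According to the methods the reads were longer than 100 bases, so some could map uniquely where a 100-base stretch is repeated.

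In the pairs Hist1h2bq/Hist1h2ao and Hist1h2ap/Hist1h2br the share was 0% at all 4 genes, and at Hist1h4m it was 15.1%. They belong to a block of Hist1 A that is present as 2 inverted copies. Over 2001 bp the windows of Hist1h2bq and Hist1h2br were 99.8% identical, with 4 differences, those of Hist1h2ao and Hist1h2ap 97.0%, and those of Hist1h4m and Hist1h4n 90.4%. Each copy holds an unbroken run of 10.424 kb without a unique stretch, chr13:21801258-21811681 and chr13:21832162-21842585, and no base of either run was in a peak. The peak that marks Hist1h4n (chr13:21825479-21831691, 6213 bp) ends before the second run begins and lies on the downstream side of Hist1h4n, which was 19.3% unique. Its near-copy Hist1h4m was not marked.

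Across Hist1 A 28.8% of positions (34.467 kb) began a repeated stretch, and 9.64% of these lay in peaks, against 44.5% of the positions that began a unique one. Not every locus showed that difference. In Hist1 C 36.2% of repeated and 36.3% of unique positions lay in peaks, and in Hist2 91.9% and 56.9%. In Hist3, with 0.09 kb of repeated positions, the shares were 0% and 13.8%. Hist1 B lay wholly in a peak, Hist1 D in none, and Hist4 had no repeated position. The duplicated Hist2 genes were marked although Hist2h3c2 (28.3%), Hist2h3c1 (27.3%) and Hist2h2aa2 (49.2%) were mostly repeated. Of the 9 histone genes under 50%, 4 were marked. Among the 91 other sampled coding genes under 50%, 1 was marked (1.10%). The other 5 unmarked histone genes were mostly unique: Hist1h2ac and Hist1h2bc at 76.3%, Hist1h2ba and Hist1h2aa at 95.8% and Hist3h2ba at 98.7%. The part of repeated sequence in the calls was not tested.

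**Figure D5:**
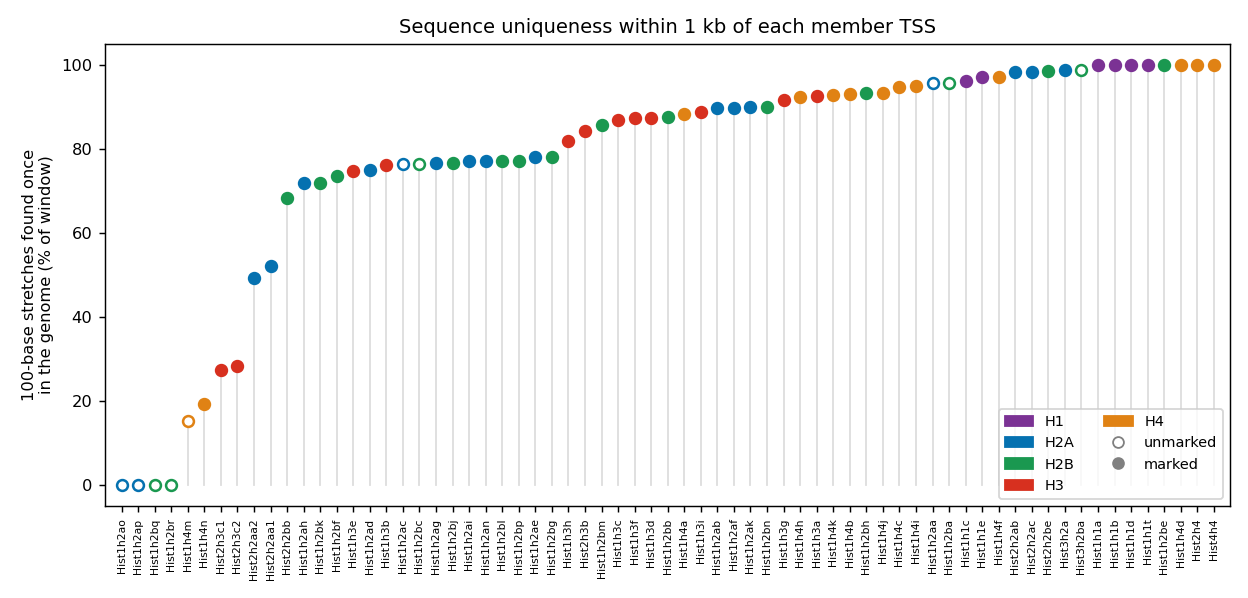
Share of 100-base stretches within 1 kb of the TSS that occur once in the genome, in percent, for each of the 67 histone genes in rising order, coloured by type, filled if marked and open if unmarked. The 4 genes at 0% and Hist1h4m at 15.1% are open, and the other 5 open circles stand at 76.3% or higher.

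The promoter letters were compared over 250 bases upstream to 50 downstream of the TSS, both strands, with the same window of all coding genes. No motif contains another, and the windows of paired genes overlap, so paired genes often count the same match. CCAAT was found in 83.6% of the histone promoters and 38.7% of all, TATAAA in 55.2% and 12.4%, and TTTCGCGC in 13.4% and 0.366%. In 150 bases upstream alone, TATAAA was in 40.3% and 7.11%, and TTTCGCGC in 5.97% (4 genes) and 0.215%. H2A and H2B promoters had similar counts. All 18 H2A and all 18 H2B promoters held CCAAT, but 4 of 13 H4 promoters did. ATTTGCAT was in 7 H2A and 8 H2B promoters and in none of H1, H3 or H4 (22.4% of the histone promoters, 1.57% of all). GGTCCG was in 12 of 13 H4, 2 H3 and 1 H2B promoters (22.4% of the histone promoters, 10.3% of all). AAACACA was in 4 of 6 H1, 3 H2B, 1 H2A and 1 H3 promoters (13.4% and 6.32%).

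The motif shares of marked and unmarked histone genes differed in either direction, and no test was run on them. Marked and unmarked genes also differ in histone type, since all unmarked genes but Hist1h4m are H2A or H2B genes. ATTTGCAT was found in these types only, and GGTCCG mainly in H4 genes. The part of the mix of types in these shares was not tested. CCAAT was in 82.5% of the marked and 90% of the unmarked promoters, TATAAA in 54.4% and 60%, and ATTTGCAT in 19.3% and 40%. Here 1 gene of the unmarked is 10%, but they include 4 head-to-head pairs, whose genes often count the same match. AAACACA was in 12.3% and 20%. GGTCCG was in 24.6% of the marked and 10% of the unmarked. TTTCGCGC was in 9 of the 57 marked and 0 of the 10 unmarked, and in 150 bases upstream in 4 and 0. In the printed intervals, the unmarked Hist1h2ac/Hist1h2bc holds a TATA box and an octamer beside its CCAAT matches, as the marked Hist2h2ac/Hist2h2be does. All 12 H2A/H2B intervals held CCAAT, 7 held TATAAA, 5 ATTTGCAT and 3 TTTCGCGC.

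Base composition was compared over the same window. The median GC content was 45.3% for the histone genes, 55.7% for all coding genes and 61.0% for all marked coding genes. The median ratio of observed to expected CpG was 0.75 in histone promoters, 0.554 in all and 0.784 in marked ones. Within the histone genes, marked and unmarked promoters had a median GC content of 45% and 47% and a median CpG ratio of 0.75 and 0.747.

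The 3′ stem-loop, the signal for mRNA end formation in this family, was found within 150 bp after the stop codon in 65 of the 67 (97.0%) and in 67 of 21664 coding genes with an annotated stop (0.309%). It began 22 to 59 bp after the stop, with a median of 31 bp. The 2 coding genes outside the family that held it were H2afx, the H2A variant of DNA damage signalling, which was marked, and the X-linked H2bfm, which was unmarked. The 2 histone genes without it were Hist1h2an and Hist2h2be, both marked. The most frequent letters of the 16-base loop are printed here because the forms with the most genes differ between H4 and the other types, and 3 further forms occurred once each. H2afx has the stem letters of most H4 genes. Capitals mark the whole loop with both stems.
41 genes of H1, H2A, H2B and H3 (33 marked): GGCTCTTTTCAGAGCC
9 genes of H1, H2A, H2B and H3 (8 marked): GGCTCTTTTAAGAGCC
8 H4 genes (7 marked): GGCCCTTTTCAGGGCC
2 H4 genes (2 marked): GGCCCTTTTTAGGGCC
2 H4 genes (2 marked): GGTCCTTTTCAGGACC

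Genes that work with the replication-dependent histones were counted in the same way, beside the 48.8% of all coding genes and with no test. All 10 genes of histone mRNA processing were marked (72.2 to 100%), among them Slbp, which encodes the stem-loop binding protein, and Lsm10 and Lsm11 of the U7 particle. Of 14 regulators of histone transcription and S phase entry 13 were marked (92.9%, 68.5 to 98.7%), including Npat, Hinfp, Casp8ap2, Ccne1 and Cdk2. The exception was Nfyc, a subunit of NF-Y, which had a peak at another isoform. Of 18 histone chaperone genes 17 were marked (94.4%, 74.2 to 99.01%), and the exception was Rbbp4.

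Of 16 genes for replication-independent histone variants 11 were marked (68.8%, 44.4 to 85.8%), an interval that includes the 48.8% of all coding genes. They were Cenpa, H1f0, H1fx, H2afj, H2afv, H2afx, H2afy, H2afy2, H2afz, H3f3a and H3f3b. Of these, H2afx holds the 3′ stem-loop of the replication-dependent genes, as given above. The 5 unmarked were the testis linker histone H1fnt, the oocyte linker histone H1foo and H2afb1, H2afb2 and H2afb3 on the X chromosome.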

How the data were processed

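H3K27ac ChIP-seq covered 6 samples. The values used are peak positions: the authors deposited a list of start and end in base pairs (mm10), a single list for both control replicates, with no count, score or p-value. According to the methods, reads were trimmed with Cutadapt, aligned with bwa meme to mouse and human genomes, cleared of duplicates with Picard 2.9.1 and of mapping quality under 10 with SAMtools 1.4, and peaks were called with LanceOtron, merged within 2 kb with Bedtools and filtered by height and by distance to ATAC-seq summits. A promoter without a listed peak may have failed a filter.

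Peaks were compared with GENCODE M21 and the GRCm38 sequence in Python 3.11.15 (numpy 2.4.6, pandas 2.3.3, scipy 1.17.1, numba 0.67.0, matplotlib 3.10.9). The protein-coding isoform of longest genomic span gave the TSS, the promoter was 1 kb to each side, and 1 bp of overlap counted. Shares carry 95% Wilson intervals. No test was run: the list has no replicates and the genes share peaks. Repeated stretches were counted exactly, on both strands, against all chromosomes and unplaced contigs. The steps were tested on simulated peaks and a toy genome and returned the known answers. All 67 genes matched RefSeq, and the alternative with RefSeq TSSs covers the 62 that have a RefSeq promoter entry. The members, gene lists, comparison sets and descriptions were chosen with earlier results of these data known. Named are every unmarked gene, the fullest, widest and narrowest peaks, testis-restricted genes, genes outside Hist1 and genes whose call changes with a setting. In the gene lists, the marked or the unmarked genes are named where they number 5 or fewer, and some others as examples. The printed H1, H3 and H4 promoters are those with the most different motifs of their type among genes whose TSS lies before the start codon (the first by position where genes tied), and the printed intervals were chosen after their calls were seen. The alternatives tried are given in the closing section.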

Additional observations from a re-analysis of the deposited data

How the results depend on the processing

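The share of marked histone genes lay between 82.1% and 91.4% under all alternatives (windows of 500 bp and 2 kb, the TSS inside a peak, other isoforms, peaks of at least 1 kb, 500 bp of overlap, genes within 10 kb counted once, unique windows, the start codon, RefSeq TSSs). The start codon, the RefSeq TSSs and leaving out the 9 windows under 50% unique, which gave 91.4%, were chosen after seeing the data. Over the window, isoform, width, overlap and start codon settings 64 of the 67 calls were the same. Hist1h4n lost its call at 500 bp, at 500 bp of overlap and with the TSS inside a peak, Hist1h1e lost it with the TSS inside, and Hist1h2ap gained one at 2 kb. The distinct peaks numbered 17 or 18, and 9 genes shared the fullest in each.

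The share of all coding genes moved by more than its interval, to 49.9% at 2 kb, 44.2% with the TSS inside, 51.0% with all isoforms, 40.0% with the shortest isoform, 43.7% with peaks of at least 1 kb, 47.4% with 500 bp of overlap and 38.5% with the start codon. The difference of histone genes from all rose to 45.1 percentage points with the shortest isoform and to 46.6 with the start codon. The regulators reached 100% with all isoforms. In 150 bases upstream, TATAAA fell to 40.3% and TTTCGCGC to 5.97% of histone promoters, in this shorter window. Of 152 alternative values 140 stayed within their limits and none reversed. The limit was the interval of the main value, or, for counts such as the distinct peaks, a fixed ratio to the main count. Leaving out a replicate and a stricter peak threshold were not run, since the list used pools the replicates and holds no height. No paired analysis was possible because only the pooled list was used and no test was run.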

Other observations

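The stretches between the Hist1 loci differed widely from one another in peak cover. Between Hist1 A and Hist1 B (199.8 kb) peaks covered 49.8% of the bases, 11 of the 12 without a histone promoter, and Zfp184 and Pom121l2 were marked while Prss16, a thymic protease gene, was not. Between Hist1 B and Hist1 C (1485.8 kb) peaks covered 5.62% of the bases, 17 of the 19 without a histone promoter, and 3 of 40 coding genes were marked, namely Zfp322a, Abt1 and Btn2a2, and none of the 36 Vmn1r genes, which encode vomeronasal receptors. Between Hist1 C and Hist1 D (168.5 kb) no peak was separate from the histone peak at its edge, which covered 0.595% of the bases, and none of 5 coding genes was marked: Trim38 and the transporter genes Slc17a1, Slc17a2, Slc17a3 and Slc17a4.

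Genes for tRNA crowd the same part of chromosome 13. Of 403 annotated tRNA genes 77 lay between the first and the last Hist1 gene, and 66 of these were marked (85.7%), against 147 of 326 elsewhere (45.1%). Only 4 of the 66 were in a peak with a histone promoter. From the first to the last Hist1 gene (2.22 Mb) there were 42 peaks, 29 of them without a histone promoter. Of the 29, 18 held a tRNA gene, 5 another coding promoter (2 of them both) and 8 neither. Neighbouring tRNA genes share peaks, so these counts were not tested.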
